A study of Mus musculus with 2 samples.

Results

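Fibroblast growth factor (FGF) ligands and the genes that FGF signalling switches on were followed through single-cell RNA-seq of the mouse second heart field, the progenitor population that feeds cells into both poles of the heart tube. The 10 genes were chosen by name: the ligands Fgf8, Fgf10 and Fgf15, and the 7 feedback genes Spry1, Spry2, Spry4, Etv4, Etv5, Dusp6 and Il17rd. They are 10 of the 16388 genes present in both deposited matrices, and the rule holds no threshold on their values. All cells came from wild-type embryos, were described as positive for the transcription factor Osr1 (each had at least 1 Osr1 count), and belonged to 1 sample at E10.5 and 1 at E9.5 (E, embryonic day). A suffix on each cell barcode gave the dissected position, which makes 7 libraries: outflow tract (31 cells), posterior (560), middle (331) and anterior (45) at E10.5, and posterior (418), middle (61) and anterior (54) at E9.5. Within each library, cells with 2 or more Epcam UMIs (unique molecular identifiers, each standing for 1 captured RNA molecule) were taken as epithelium and set against the other cells. This gave 78 epithelial cells of 967 at E10.5 and 118 of 533 at E9.5. The labels used here do not state how many embryos were pooled, how the Osr1+ cells were picked, or whether each suffix was a separate 10x library, so a position is called a library here by its suffix alone.

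FGF ligands bind tyrosine kinase receptors together with heparan sulphate, and the signal runs through Ras and the kinase ERK to ETS transcription factors. Active signalling raises its own brakes: Sprouty proteins act between receptor and ERK, Dusp6 removes phosphate from ERK, and the membrane protein Il17rd (also called Sef) dampens the same route. Etv4 and Etv5 are ETS factors that respond to FGF and serve as readouts of it. In the mouse, Fgf8 is made in the anterior second heart field and the pharyngeal epithelia and is required for outflow tract growth, and Fgf10 is a classic marker of second heart field mesoderm that signals to neighbouring epithelium.

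The epithelial class carried the markers of foregut and pharyngeal epithelium. Summed over 14 listed markers, their level was 2652 CPM (counts scaled to sequencing depth) in epithelium and 119 CPM in other cells at E10.5, and 2678 CPM in epithelium and 331 CPM in other cells at E9.5. Epcam, which set the classes, is among the 14, so its part of these sums was fixed by the rule. It gave 818 CPM in epithelium and 14.7 CPM in other cells at E10.5, and 354 and 4.15 CPM at E9.5. The class also carried markers of other lineages. The 4 listed liver (hepatoblast) markers summed to 731 CPM in epithelium and 104 CPM in other cells at E10.5, and to 233 and 9.07 CPM at E9.5. The 4 listed nephric (kidney) markers summed to 18.4 CPM in epithelium and 2.90 CPM in other cells at E10.5, and to 74.1 and 6.18 CPM at E9.5. Epithelium made up 10.4% of posterior, 4.83% of middle and 2.22% of anterior cells at E10.5, and 15.1% of posterior, 34.4% of middle and 63.0% of anterior cells at E9.5, so position and the share of epithelium moved together at E9.5. Just inside the Epcam threshold, cells with exactly 2 UMIs had 507 CPM of the marker list without Epcam at E10.5 (17 cells) and 850 CPM at E9.5 (12 cells). Just outside the threshold, cells with exactly 1 UMI had 200 CPM of the same list at E10.5 (76 cells) and 306 CPM at E9.5 (53 cells). These values leave out Epcam, unlike the class sums above. The median cell held 5371 UMIs at E10.5 and 30208 at E9.5, and Xist, which marks female cells, had a UMI in 93.4% of E10.5 cells and 0.188% of E9.5 cells, so stage, sex and depth cannot be told apart. Of 9 markers of splanchnic or second heart field mesoderm, all were detected in the posterior and middle libraries of both stages. Tbx5 and Wnt2 were at 0 in both anterior libraries, and Gata4 and Hand2 also in that of E10.5. Cardiomyocyte markers summed to 284 CPM in posterior, 79.4 CPM in middle and 142 CPM in anterior other cells at E10.5, and to 3153 CPM in posterior, 402 CPM in middle and 1711 CPM in anterior other cells at E9.5. Somite or branchiomeric muscle markers summed to 97.4 CPM in posterior and 166 CPM in anterior other cells at E10.5, and to 40.9 and 20.5 CPM at E9.5. Neural markers summed to 5.75 CPM in posterior and 68.8 CPM in anterior other cells at E10.5, and to 14.7 and 15.9 CPM at E9.5. The anterior libraries of the 2 stages thus differed in these markers. The part of all these markers in the position differences below was not tested. In sums over cells, fewer cells of a type and less RNA per cell cannot be told apart. One barcode sequence was shared by 2 cells of different E10.5 libraries, and 0 were shared between the stages.

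Promoter sequence was at hand for 6 of the 10 genes in the RefSeq table (GRCm38.p6), with 2 start sites for Etv5. The 4 genes shown are 2 feedback genes that the results turn on (Spry2 and Etv5), the ligand that was lower in epithelium within the E9.5 libraries (Fgf10), and Dusp6, the only one of the 6 with a match to an ETS core. For Fgf10 and Etv5 the RefSeq start used here differs from the end of the gene model whose position is given below. Each line gives the 250 bases before the gene's start, 5′ to 3′ on the gene's strand. The windows are chr14:105896820-105897069 (minus strand) for Spry2, chr16:22439571-22439820 (minus) for Etv5, chr13:118714449-118714698 (plus) for Fgf10 and chr10:99262981-99263230 (plus) for Dusp6. Capitals mark the ETS core CGGAAG or its reverse complement.
Spry2: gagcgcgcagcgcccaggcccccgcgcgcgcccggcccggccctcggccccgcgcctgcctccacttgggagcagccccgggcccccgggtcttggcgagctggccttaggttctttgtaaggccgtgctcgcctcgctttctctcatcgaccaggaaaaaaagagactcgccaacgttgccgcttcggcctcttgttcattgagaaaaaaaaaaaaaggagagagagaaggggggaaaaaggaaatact
Etv5: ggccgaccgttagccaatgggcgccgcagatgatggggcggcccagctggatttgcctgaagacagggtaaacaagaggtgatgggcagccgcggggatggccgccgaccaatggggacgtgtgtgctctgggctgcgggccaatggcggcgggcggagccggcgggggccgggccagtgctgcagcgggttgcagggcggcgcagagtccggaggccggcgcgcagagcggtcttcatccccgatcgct
Fgf10: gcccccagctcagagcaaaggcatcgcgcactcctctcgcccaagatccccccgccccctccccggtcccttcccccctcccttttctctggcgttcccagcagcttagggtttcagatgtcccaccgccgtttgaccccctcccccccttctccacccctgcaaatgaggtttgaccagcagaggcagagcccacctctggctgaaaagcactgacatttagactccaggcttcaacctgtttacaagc
Dusp6: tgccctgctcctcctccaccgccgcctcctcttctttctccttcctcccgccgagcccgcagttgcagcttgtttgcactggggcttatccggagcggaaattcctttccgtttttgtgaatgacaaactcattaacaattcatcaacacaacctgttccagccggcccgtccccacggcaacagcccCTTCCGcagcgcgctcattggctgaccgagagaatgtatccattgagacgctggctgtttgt

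The ETS core was searched on both strands over 300 bases (250 before to 50 after the start) and occurs in 17.0% of all 32544 promoters in the table. The Dusp6 match begins 62 bases before the start, and the windows of Spry1, Spry2, Fgf10, Il17rd and Etv5 held none. A GC box (GGGCGG) was present in Spry1, Fgf10, Il17rd and 1 of the 2 Etv5 windows, against 35.9% of all promoters. The AP-1 site TGANTCA (7.79% of all promoters) and the T-box site GGTGTGA (3.95%) were in none of these windows. The ends of an ETS core and a GC box can share letters, but no match found here overlaps another, and a match is a description of letters only.

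Fgf8 (chromosome 19, 45736798 to 45742915, minus strand, mm10) was concentrated in the anterior E9.5 library. Its level at E9.5 was 1.68 CPM in the posterior library (23 UMIs), 26.9 CPM in the middle (43 UMIs) and 103 CPM in the anterior (133 UMIs). The posterior level was 0.0164 times the anterior level (95% counting interval 0.0101 to 0.0257) and the middle level 0.262 times it (0.181 to 0.372), so the intervals of the 3 levels did not overlap. At E10.5 the same gradient was not seen. There Fgf8 had 0.290 CPM in the posterior library (1 UMI), 8.82 CPM in the middle (18 UMIs) and 0 UMIs in the anterior, where 3 counts would be 11.8 CPM. The anterior level was at least 8.68-fold lower at E10.5 than at E9.5, with the floor of 3 counts in the E10.5 library, and the middle level was 0.328 times that of E9.5 (0.178 to 0.581).

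Epithelium and other cells both carried Fgf8 at E9.5, and which of them carried more depended on the position. In the anterior library its level was 119 CPM in epithelium (16 of 34 cells with a UMI) and 70.5 CPM in other cells (8 of 20), a fold of 1.69 (1.12 to 2.61). The shares of cells with a UMI there were 47.1% of epithelium and 40% of other cells, and after thinning every cell to 4500 UMIs 20.6% of epithelium and 5% of other cells. In the middle library it was 8.24 CPM in epithelium (3 of 21 cells) and 42.4 CPM in other cells (14 of 40), a fold of 0.194 (0.0671 to 0.465). In the posterior library epithelium had a UMI in 0 of 63 cells, which allows a share of up to 4.76% at 3 counts and 5.69% by the exact 95% binomial limit, and other cells in 17 of 355 (4.79%), at median depths of 31879 and 31154 UMIs, so a difference in these shares was not detectable. By level, posterior other cells at E9.5 had 2.00 CPM (23 UMIs, 1.27 to 3.01). Posterior epithelium had 0 UMIs, where 3 counts would be 1.38 CPM and the exact upper limit is 1.69 CPM. Among E10.5 cells, 16 of the 18 UMIs of the middle library sat in a single epithelial cell that was also the deepest cell of that stage (45943 UMIs). Without it the E10.5 middle epithelium had 0 Fgf8 UMIs, so that library's 59.7-fold epithelial excess (14.0 to 535) rests on 1 cell.

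**Figure D1:**
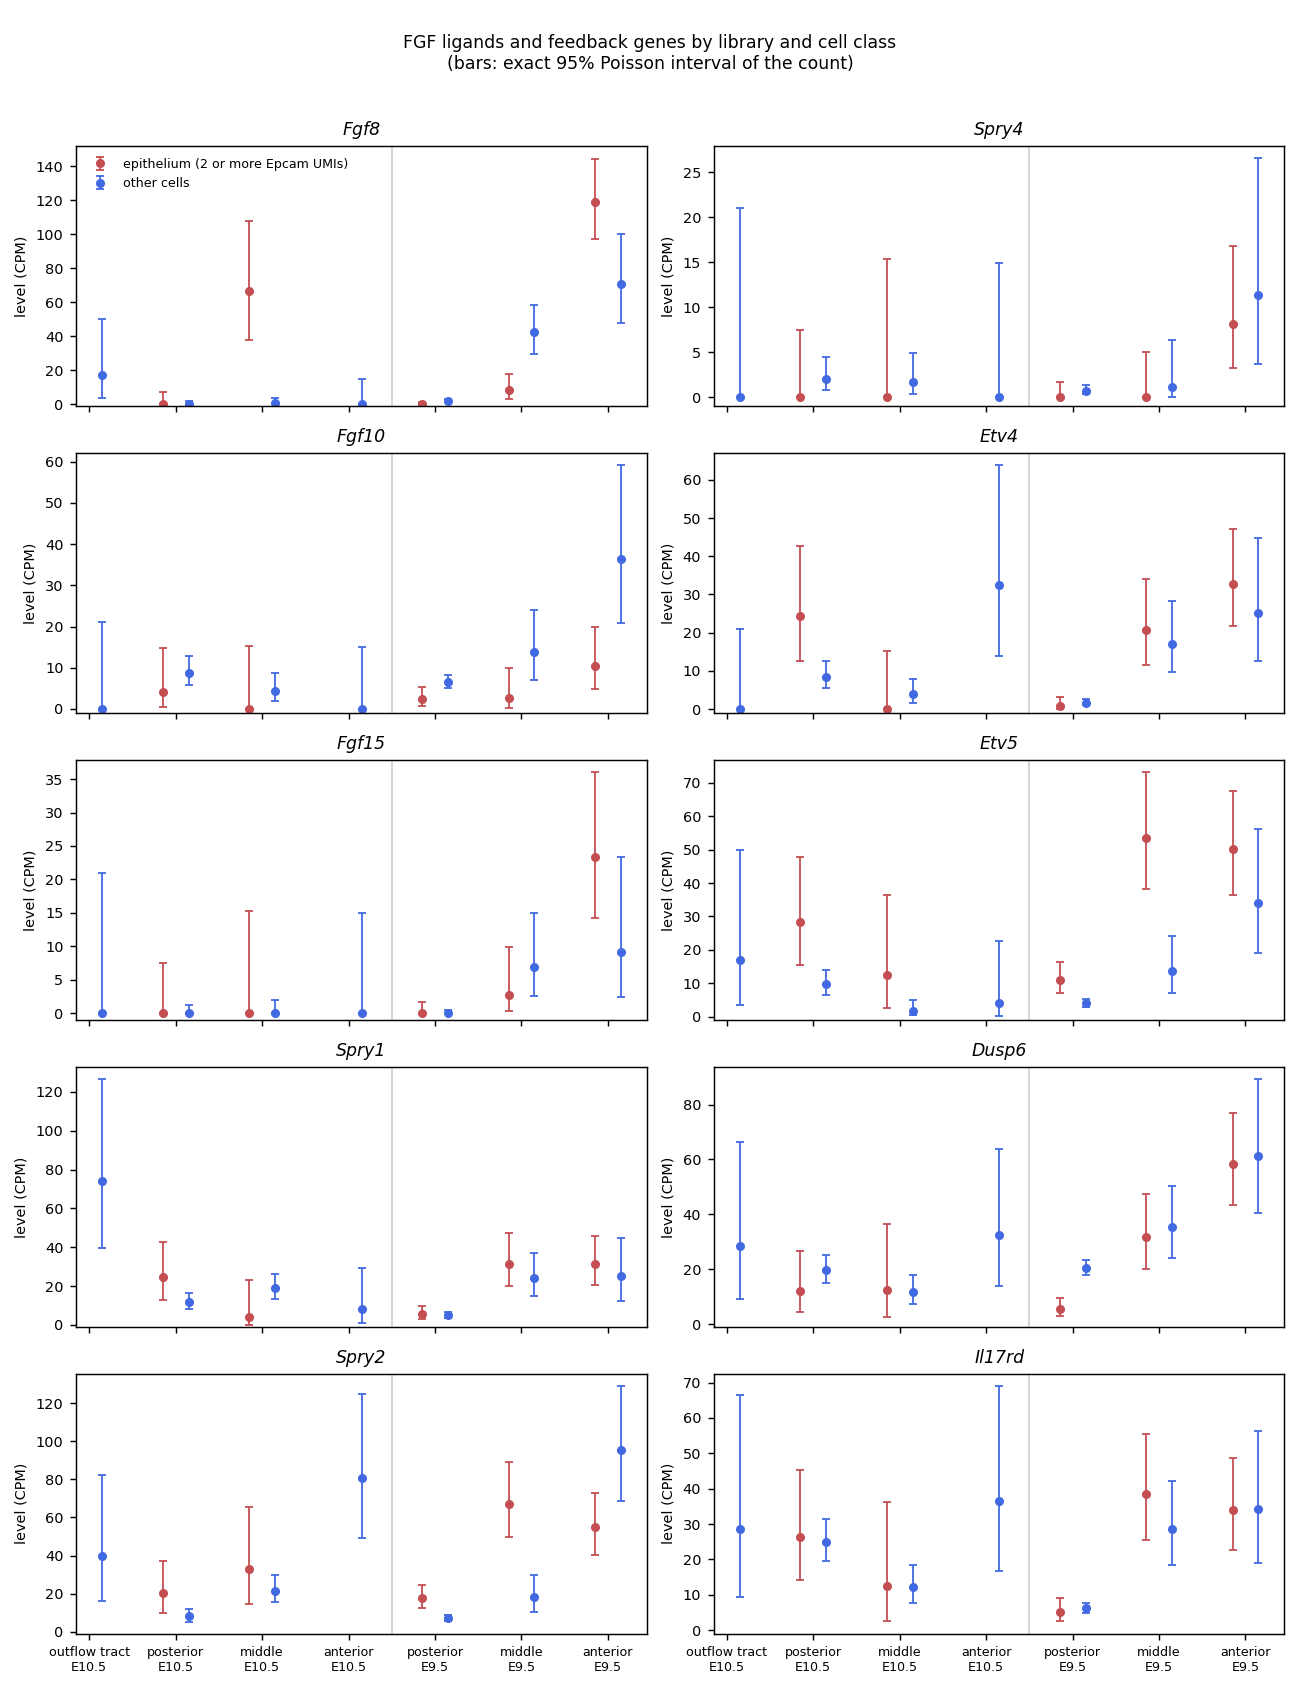
Levels of the 10 genes in CPM (vertical axes) in each library (horizontal axis), for epithelium (red, left) and other cells (blue, right), with exact 95% Poisson intervals of the counts. Classes of fewer than 5 cells are not drawn. Fgf8 reached 119 CPM in E9.5 anterior epithelium, Fgf10 was lower in epithelium than in other cells at all 3 E9.5 positions, and Fgf15 was at 0 in every E10.5 library.

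Fgf10 (chromosome 13, 118669791 to 118792115, plus strand) was lower in epithelium than in other cells of the same library at E9.5. Its level was 2.30 CPM in posterior epithelium and 6.54 CPM in posterior other cells, a fold of 0.351 (0.111 to 0.857). In the middle library it was 2.75 CPM in epithelium and 13.7 CPM in other cells (0.200, 0.0217 to 0.897), and in the anterior library it had 9 UMIs in epithelium and 16 UMIs (36.4 CPM) in other cells, a fold of 0.288 (0.112 to 0.693). All 3 intervals lay below 1. At E10.5 the posterior library gave 4.07 CPM in epithelium from 2 UMIs and 8.79 CPM in other cells (0.463, 0.0532 to 1.85), an interval that spans 1. Over all cells of a library Fgf10 was at 5.09 CPM in the outflow tract (1 UMI), 8.12 CPM in the posterior, 3.92 CPM in the middle and 0 UMIs in the anterior library at E10.5, and at 5.86 CPM in the posterior, 8.74 CPM in the middle and 19.3 CPM in the anterior library at E9.5. The E9.5 posterior level was 0.304 times the anterior one (0.192 to 0.497), while posterior and middle did not differ beyond counting error (0.670, 0.377 to 1.28). In the anterior library Fgf10 was at least 1.63-fold lower at E10.5 than at E9.5.

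Fgf15, a ligand of pharyngeal endoderm and neural tissue, was rare. It had 33 UMIs in 13 cells at E9.5 and 0 UMIs at E10.5. At E9.5 it had 1 UMI in the posterior library (0.0733 CPM), 8 UMIs in the middle and 24 UMIs in the anterior (18.5 CPM), and the middle level was 0.270 times the anterior one (0.105 to 0.621), which is the same order as for Fgf8. In the anterior library it was at 23.3 CPM in epithelium (5 of 34 cells) and 9.10 CPM in other cells (3 of 20), a difference within counting error (2.56-fold, 0.859 to 10.3). Its level was at least 3.40-fold lower at E10.5 than at E9.5 in the middle library and at least 1.57-fold lower in the anterior one. By share of cells the anterior stages could not be told apart: 0 of 45 cells at E10.5 allows a share of up to 6.67% at 3 counts and 7.87% by the exact limit, and 3.70% of E9.5 anterior cells kept an Fgf15 UMI after thinning.

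Among the feedback genes, Spry2 (chromosome 14, 105891947 to 105896819, minus strand) had the same order over positions at both stages. Its level was 9.86 CPM in the posterior, 23.0 CPM in the middle and 78.8 CPM in the anterior library at E10.5, and 9.01 CPM in the posterior, 40.6 CPM in the middle and 68.6 CPM in the anterior library at E9.5. The posterior level was 0.125 times the anterior level at E10.5 (0.0700 to 0.229) and 0.131 times at E9.5 (0.0991 to 0.174). Neighbouring positions also differed beyond counting error at both stages, but at E9.5 the middle level, 0.591 times the anterior one (0.423 to 0.823), was 0.812 times it (0.565 to 1.17) without 1 anterior cell that held 26 of the 89 UMIs, a difference within counting error. In the posterior and the anterior libraries, E10.5 and E9.5 did not differ beyond counting error (1.09-fold, 0.725 to 1.61, and 1.15-fold, 0.669 to 1.88), and in the middle library the E10.5 level was 0.567 times that of E9.5 (0.381 to 0.838).

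The other Sprouty genes were lower in count or less regular. Spry1 was at 66.1 CPM in the outflow tract, 13.6 CPM in the posterior, 17.1 CPM in the middle and 7.88 CPM in the anterior library at E10.5, and at 5.05 CPM in the posterior, 27.5 CPM in the middle and 29.3 CPM in the anterior library at E9.5. Its E9.5 middle and anterior levels did not differ beyond counting error (0.937, 0.594 to 1.49), while both exceeded the posterior one. Spry4 had at most 12 UMIs in any library. Its level was 0.586 CPM in the posterior and 9.25 CPM in the anterior library at E9.5 (0.0633, 0.0225 to 0.168).

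The ETS factors and the remaining brakes were graded at E9.5 but not in the same way at E10.5. Etv5 (chromosome 16, 22381309 to 22439719, minus strand) was at 12.5 CPM in the posterior, 2.94 CPM in the middle and 3.94 CPM in the anterior library at E10.5 (43, 6 and 1 UMIs), and at 5.13 CPM in the posterior, 31.8 CPM in the middle and 44.7 CPM in the anterior library at E9.5. Etv4 was at 10.7 CPM in the posterior, 3.43 CPM in the middle and 31.5 CPM in the anterior library at E10.5, and at 1.61 CPM in the posterior, 18.7 CPM in the middle and 30.1 CPM in the anterior library at E9.5. At E9.5 the middle and anterior levels of both factors did not differ beyond counting error, and the posterior level stood below both. Dusp6 (chromosome 10, 99263231 to 99267489, plus strand) was at 18.6 CPM in the posterior, 11.8 CPM in the middle and 31.5 CPM in the anterior library at E10.5, and at 18.2 CPM in the posterior, 33.7 CPM in the middle and 59.4 CPM in the anterior library at E9.5. Il17rd was at 25.2 CPM in the posterior, 12.2 CPM in the middle and 39.4 CPM in the anterior library at E10.5, and at 6.01 CPM in the posterior, 33.1 CPM in the middle and 33.9 CPM in the anterior library at E9.5. Summed, the 7 feedback genes stood at 92.2 CPM in the posterior library (1.28 times the middle level, 1.05 to 1.57) and 193 CPM in the anterior library at E10.5, and at 45.6 CPM in the posterior, 186 CPM in the middle and 275 CPM in the anterior library at E9.5.

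The question of position was tested over 6 libraries (posterior, middle and anterior of each stage), with the stage samples as replicates. Spry2 and Fgf8 were lower in posterior than in anterior libraries, and the other tested genes had negative fitted folds that did not pass. Spry2 fell by 3.03 ± 0.35 on the log2 scale (SE, adjusted p = 0.0107, edgeR quasi-likelihood test with Benjamini-Hochberg adjustment over all genes, n = 2 libraries per position). Fgf8 fell by 5.71 ± 0.73 (adjusted p = 0.0168, edgeR). These are 2 of the 8 members that passed the filter on low counts, read against 0.295% of all 9825 genes called, 0.142% lower and 0.153% higher. Fgf15 and Spry4 did not pass the filter. The fitted log2 folds of the other 6 were -0.90 for Fgf10, -1.39 for Dusp6, -1.53 for Spry1, -1.55 for Il17rd, -1.59 for Etv5 and -2.75 for Etv4. The median of the 8 was -1.57, and that of all genes 0.02. Spry2 was lower in posterior at both stages and passed in each of the 6 fits that left out 1 library, although those fits had 1 residual degree of freedom and called 95 to 332 genes. Fgf8 rests on the E9.5 anterior library: without it the fold was 4.01, from 1 UMI in the posterior and 0 UMIs in the anterior library at E10.5. Without that library the folds of Fgf10 (7.75), Etv5 (0.77) and Spry1 (0.25) were also above 0, and without the E9.5 posterior library those of Etv5 (1.42), Fgf10 (0.46) and Il17rd (0.0037), none of them past the threshold. Neither Spry2 nor Fgf8 passed in a model with no stage term.

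The same test on cells with fewer than 2 Epcam UMIs set the epithelium aside by that threshold. Epithelial markers still summed to 165 CPM in posterior and 20.2 CPM in anterior other cells at E10.5, and to 335 CPM in posterior and 507 CPM in anterior other cells at E9.5, and their part in the fits was not tested. Spry2 fell by 3.67 ± 0.37 (adjusted p = 8.00e-05, edgeR) and Fgf8 by 5.05 ± 0.68 (adjusted p = 0.00115, edgeR) in posterior against anterior other cells, 2 of 8 tested members against 0.489% of all 9005 genes called (0.289% lower, 0.2% higher). Etv4 had a fitted fold of -2.90 ± 0.84 and did not pass (adjusted p = 0.215, edgeR). The Spry2 levels behind this were 8.12 CPM in posterior and 80.9 CPM in anterior other cells at E10.5, and 7.32 CPM in posterior and 95.6 CPM in anterior other cells at E9.5, and the groups did not overlap. Of the 42 Spry2 UMIs in the E9.5 anterior other cells, 26 came from 1 cell, and without that cell the level was 39.6 CPM, still above both posterior levels, and the E9.5 posterior level was 0.185 times it (0.107 to 0.338) in place of 0.0766 times (0.0523 to 0.114). Without the E9.5 anterior library the Fgf8 fold was 1.52, and without the E9.5 posterior library it was -2.04, neither past the threshold.

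**Figure D2:**
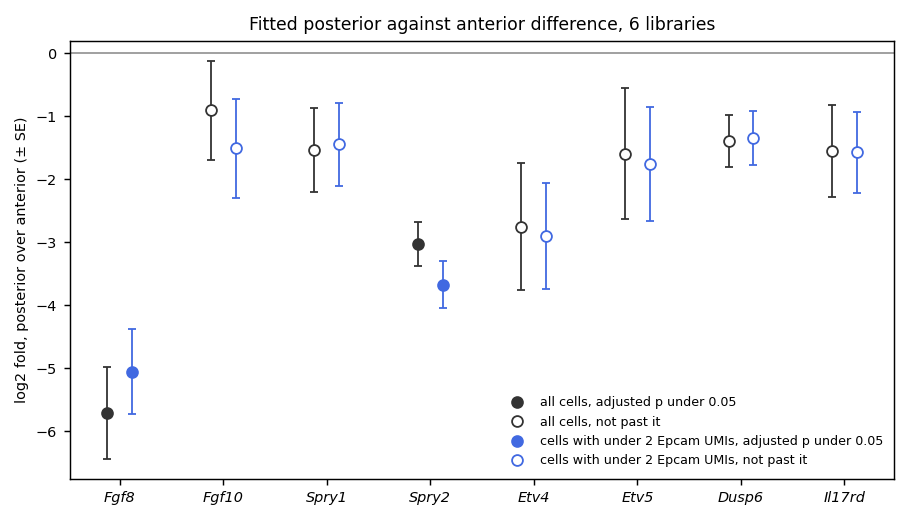
Fitted log2 folds, posterior over anterior (vertical axis, ± SE), of the 8 members that passed the filter, for all cells (black) and cells with fewer than 2 Epcam UMIs (blue), over 6 libraries. Filled points had an adjusted p under 0.05 (edgeR): Fgf8 and Spry2 in both fits. All 8 fitted folds lie below 0 in both, with signs that turn for Fgf8, Fgf10, Spry1, Etv5 and Il17rd in all cells, and for the same genes but Il17rd in cells with fewer than 2 Epcam UMIs, when the E9.5 anterior or posterior library is left out.

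Between posterior and middle libraries no member passed in all cells, with 0.193% of genes called (0.0509% lower, 0.142% higher). Fgf8 had a fitted fold of -4.38 ± 0.72 (adjusted p = 0.0704, edgeR) and Spry2 one of -1.82 ± 0.33 (adjusted p = 0.1000, edgeR), 3 members had an unadjusted p under 0.05, and DESeq2 called 2, Fgf8 and Spry2. In other cells Fgf8 fell by 4.22 ± 0.64 in posterior against middle libraries (adjusted p = 0.00396, edgeR, with 0.489% of genes called, 0.189% lower and 0.3% higher), and Spry2 had a fold of -1.47 ± 0.37 that did not pass. The Fgf8 call was lost without the E9.5 middle library (-3.41) and without the E9.5 posterior library (-1.26). Between middle and anterior libraries edgeR called 0 genes of 9825 (0%) and 0 members, 345 genes and 2 members had an unadjusted p under 0.05, and DESeq2 called 4 genes. The fitted folds there were -1.21 ± 0.34 for Spry2 and -1.32 ± 0.64 for Fgf8, which was 8.19 without the E9.5 anterior and 1.36 without the E9.5 middle library.

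Epithelium was compared with other cells on counts summed per stage, which gives 4 sums. Etv5, Fgf8, Etv4 and Spry2 were higher in epithelium, and Fgf10 and Dusp6 had folds below 0 that did not pass. Fgf8 rose by 2.57 ± 0.34 on the log2 scale, Etv5 by 2.12 ± 0.31, Etv4 by 1.49 ± 0.37 and Spry2 by 1.35 ± 0.26 (SE, edgeR, largest adjusted p of the 4 = 0.00184, n = 2 stage samples). These 4 of 8 tested members are to be read against 11.8% of 11330 genes called, 6.95% higher and 4.87% lower. Spry1 (0.84 ± 0.31, adjusted p = 0.0598) and Il17rd (0.76 ± 0.28, adjusted p = 0.0613, both edgeR) did not pass, nor did Fgf10 (-0.85 ± 0.45) and Dusp6 (-0.15 ± 0.27). These sums mix positions, since the E9.5 anterior library, which had the highest levels of Fgf8 and of the summed feedback genes, also had the largest share of epithelium. At E10.5, 16 of the 18 epithelial Fgf8 UMIs came from 1 cell of the middle library, and without that library Fgf8 rose by 2.00 and still passed. In sums per library and class with the library as a block (5 libraries with at least 5 cells of both classes), only Etv5 passed among the members, at 1.47 ± 0.28 (adjusted p = 0.00495, edgeR, with 5.9% of 7158 genes called). The blocked folds of Spry2 and Etv4 were 0.83 ± 0.35 and 0.45 ± 0.36, and Fgf8 and Fgf10 did not pass that fit's filter. DESeq2 on the stage sums called Etv5 and Fgf8 only. Fgf8 and Etv4 did not pass without the E9.5 anterior library (1.25 and 1.07), Spry2 and Etv4 not without the E9.5 posterior library (0.56 and 0.71), and Etv4 not without the E10.5 posterior library (1.23).

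Within libraries, Etv5 was higher in epithelium beyond counting error in 3 of the 4 libraries with more than 3 UMIs in a class. Its level was 28.5 CPM in epithelium and 9.81 CPM in other cells of the E10.5 posterior library (2.90-fold, 1.42 to 5.67). At E9.5 it was 11.0 CPM in epithelium and 4.01 CPM in other cells of the posterior library (2.75-fold, 1.60 to 4.60), 53.5 CPM and 13.7 CPM in epithelium and other cells of the middle library (3.90-fold, 2.00 to 8.17), and 50.2 CPM and 34.1 CPM in epithelium and other cells of the anterior library (1.47-fold, 0.800 to 2.85). The first 3 intervals lie above 1 and the anterior one spans it. Spry2 was higher in epithelium in the posterior libraries (2.51-fold, 1.07 to 5.44, at E10.5, and 2.45-fold, 1.63 to 3.62, at E9.5) and in the E9.5 middle library (3.67-fold, 2.05 to 6.92, or 2.62-fold, 1.40 to 5.10, without the epithelial cell that held 16 of 49 UMIs). In the E9.5 anterior library Spry2 was at 54.8 CPM in epithelium and 95.6 CPM in other cells (0.574, 0.370 to 0.891). Without the 1 other cell that held 26 UMIs the same fold was 1.38 (0.770 to 2.61), so the inverse order there rests on 1 cell.

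Dusp6 was lower in epithelium of the E9.5 posterior library. Its level there was 5.51 CPM in epithelium and 20.6 CPM in other cells (0.268, 0.136 to 0.477), while the middle (0.889, 0.495 to 1.58) and anterior (0.949, 0.583 to 1.58) libraries showed no difference beyond counting error. At E10.5 the posterior fold was 0.622 (0.219 to 1.44). Il17rd did not differ between classes beyond counting error in any of the 5 libraries, with folds from 0.816 to 1.34. Etv4 exceeded counting error only in the E10.5 posterior library, at 24.4 CPM in epithelium and 8.45 CPM in other cells (2.89-fold, 1.32 to 5.96).

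**Figure D3:**
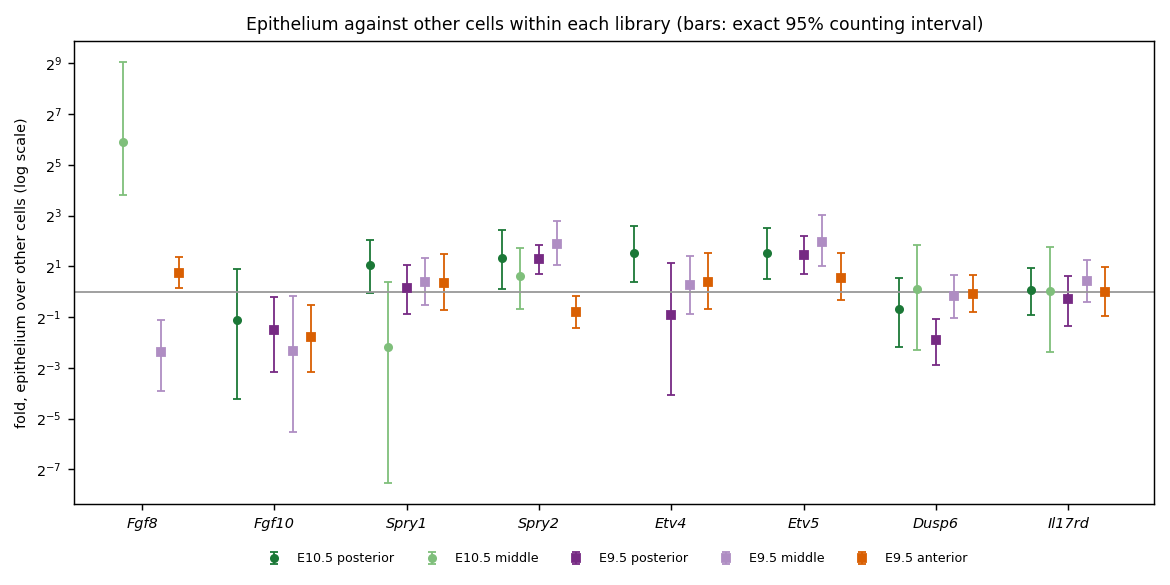
Fold of the level in epithelium over other cells within each of the 5 libraries with at least 5 cells of both classes (vertical axis, log scale), per gene, with exact 95% counting intervals. Pairs with 0 counts in a class, or with both classes at 3 counts or fewer, are not drawn. Fgf10 lies below 1 in every library drawn, Etv5 above 1, and the Fgf8 point of the E10.5 middle library (59.7) comes from 1 cell.

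The order of posterior and middle differed between the stages for 3 feedback genes. Etv5 was 4.24-fold higher in the posterior than in the middle library at E10.5 (1.80 to 12.2), while at E9.5 its posterior level was 0.161 times the middle one (0.111 to 0.236). For Etv4 the same ratio was 3.13 (1.38 to 8.32) at E10.5 and 0.0860 (0.0473 to 0.154) at E9.5, and for Il17rd it was 2.06 (1.31 to 3.36) at E10.5 and 0.182 (0.127 to 0.261) at E9.5. In cells with fewer than 2 Epcam UMIs, the E10.5 ratios were 5.88 (1.82 to 30.2) for Etv5, 2.05 (1.26 to 3.46) for Il17rd and 2.17 (0.914 to 5.95) for Etv4, the last spanning 1. Seen by position, E10.5 over E9.5 in the posterior library was 6.66 for Etv4 (3.82 to 11.8), 4.20 for Il17rd (3.07 to 5.75), 2.70 for Spry1 (1.82 to 3.96) and 2.43 for Etv5 (1.62 to 3.60). In the middle library it was 0.183 for Etv4 (0.0679 to 0.425), 0.370 for Il17rd (0.220 to 0.606), 0.624 for Spry1 (0.389 to 0.995) and 0.0923 for Etv5 (0.0324 to 0.215). Spry2 and Dusp6 did not differ between stages beyond counting error in the posterior library (1.09 and 1.02). With 1 sample per stage there was no test, and these intervals cover counting error only. Averaged over the 3 positions on a log2(CPM + 10) scale, 9 of the 10 genes were below 0 for E10.5 over E9.5, against 56.5% of 12531 genes, and the median was -0.45 for the members and -0.06 for all genes. Fgf8 (-1.55) and Etv5 (-1.03) were at least 2-fold lower by that mean, as were 2.51% of all genes, and 0 members were at least 2-fold higher, against 2.5%. The positions did not share this direction. In the posterior library only Fgf8 (-0.18) and Fgf15 (-0.01) were below 0, and the other members ran from 0.02 (Dusp6) to 1.14 (Il17rd). In the anterior library Fgf8 (-3.49), Etv5 (-1.97), Fgf10 (-1.55) and Fgf15 (-1.51) were lowest, with at most 1 UMI each at E10.5. Spry2, Etv4 and Il17rd were above 0 there.

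**Figure D4:**
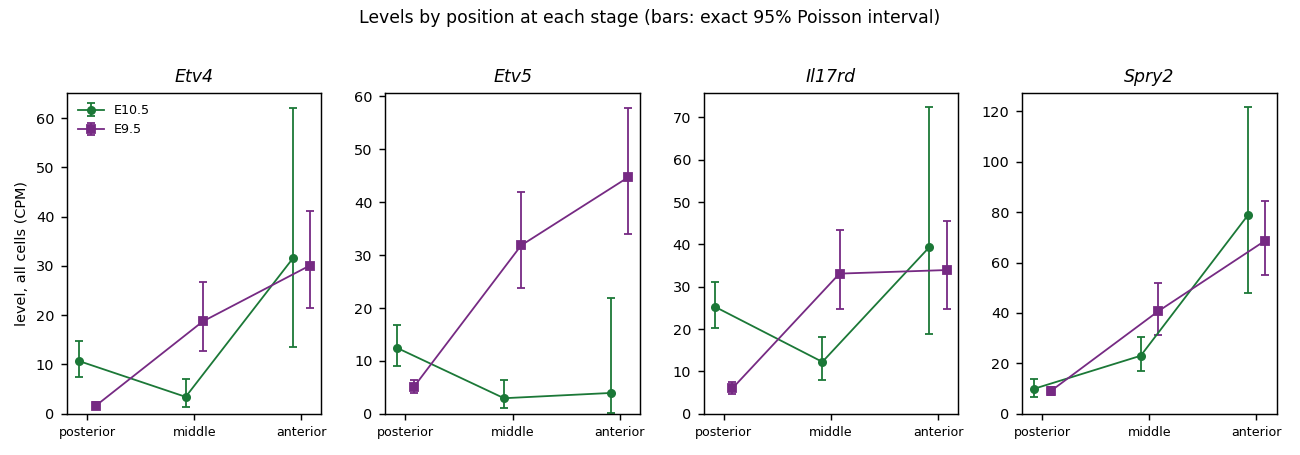
Levels of Etv4, Etv5, Il17rd and Spry2 over all cells (vertical axes, CPM) in posterior, middle and anterior libraries at E10.5 (green circles) and E9.5 (purple squares), with exact 95% Poisson intervals. The posterior point exceeds the middle one at E10.5 and lies below it at E9.5 for Etv4, Etv5 and Il17rd, while Spry2 is ordered alike at both stages.

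The outflow tract library, dissected at E10.5 alone, was set against the anterior library of that stage (31 and 45 cells). Spry1 was at 66.1 CPM in the outflow tract (13 UMIs) and 7.88 CPM in the anterior library (2 UMIs), an 8.40-fold difference (1.90 to 76.6). Fgf8 had 5 UMIs in 2 outflow tract cells and 0 in the anterior library, at least 2.15-fold higher. Etv4 had 0 UMIs in the outflow tract and 8 in the anterior library. That anterior level was 2.06 times the outflow tract floor of 3 counts, with its own counting error left out. Spry2 (0.646, 0.270 to 1.45), Dusp6 (0.807, 0.208 to 2.80) and Il17rd (0.904, 0.292 to 2.63) did not differ beyond counting error. Of the 6 members with at least 5 UMIs in both libraries together, 2 were at least 2-fold higher on the log2(CPM + 10) scale and 1 at least 2-fold lower, beside 6.8% and 4.86% of 7071 genes. The summed level of the 7 feedback genes was 193 CPM in each of the 2 libraries.

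At E9.5, feedback levels were also compared between cells with and without a ligand UMI of the same library and class. In the anterior other cells the 7 feedback genes summed to 387 CPM in the 8 cells with an Fgf8 UMI and 186 CPM in the 12 without (2.08-fold, 1.42 to 3.10, or 1.61-fold, 1.05 to 2.47, without the cell with most feedback UMIs), at median depths of 27398 and 16677 UMIs. In anterior epithelium they summed to 337 CPM in 16 cells with and 197 CPM in 18 cells without (1.71-fold, 1.30 to 2.28), and in middle other cells to 202 CPM in 14 cells with and 97.9 CPM in 26 cells without (2.06-fold, 1.42 to 3.02). All 4 classes with at least 5 Fgf8 cells had the higher sum in those cells. The single genes did not all follow the sum. In anterior other cells Dusp6 (0.422, 0.160 to 1.01) and Spry1 (0.376, 0.0643 to 1.57) were lower in cells with an Fgf8 UMI. The other feedback genes were higher there, and Spry2 gave 35 of the 85 UMIs, 26 of them from 1 cell. In posterior other cells the fold of the sum was 2.19 (1.60 to 2.92), but 20 of the 51 UMIs came from 1 cell, and without it the fold was 1.42 (0.951 to 2.04). Fgf10 cells did not show it in the posterior libraries: their feedback sum was 0.819 times that of the cells without at E9.5 (38.4 and 46.8 CPM, 0.627 to 1.06) and 0.794 times at E10.5 (68.1 and 85.8 CPM, 0.376 to 1.49). Elsewhere at E9.5 the fold for Fgf10 cells was 1.63 in middle other cells (1.08 to 2.43), 1.71 in anterior epithelium (1.24 to 2.31) and 1.65 in anterior other cells (1.12 to 2.47). Without the cell with most feedback UMIs these were 1.35 (0.833 to 2.11), 1.36 (0.928 to 1.95) and 1.26 (0.824 to 1.94), each spanning 1. In the anterior other cells 5 of the 8 Fgf10 cells also had an Fgf8 UMI. Cells are not replicates, so these values describe 1 sample.

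**Figure D5:**
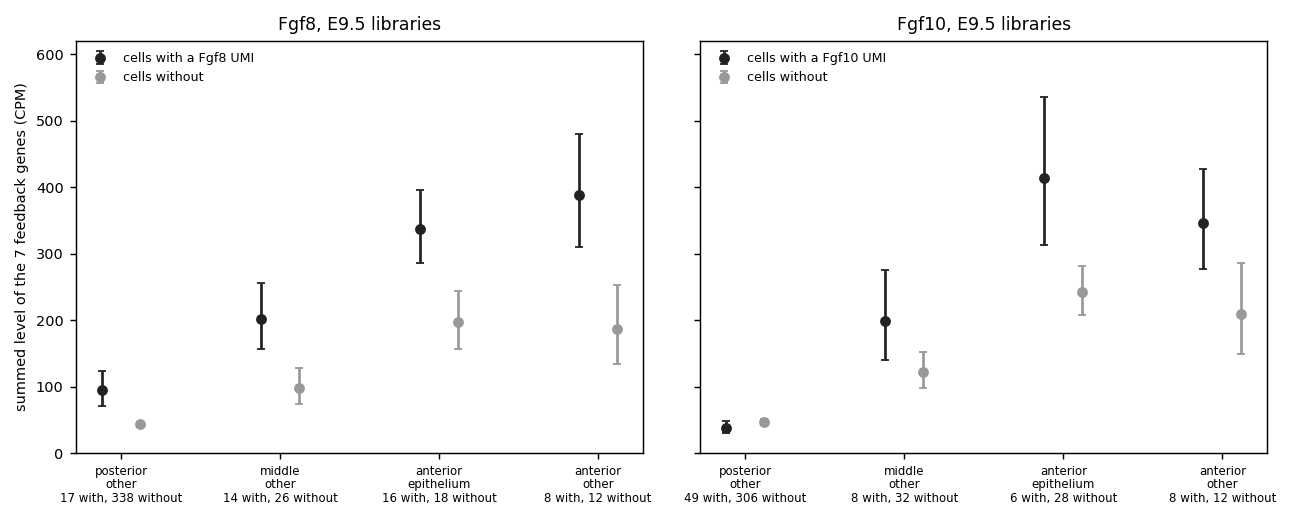
Summed level of the 7 feedback genes (vertical axis, CPM) in E9.5 cells with (black, left) and without (grey, right) a UMI of Fgf8 (left panel) or Fgf10 (right panel), per library and class with the cell numbers below, and exact 95% Poisson intervals. Cells with an Fgf8 UMI lie higher in all 4 classes, and posterior cells with an Fgf10 UMI do not.

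Of 78 other FGF pathway genes listed by role, 73 were in both matrices. In posterior against anterior libraries 55 were tested, 0 were higher and 2 lower, beside 0.153% of all 9825 genes higher and 0.142% lower. Tbx1, a T-box factor reported to act upstream of Fgf8 and Fgf10 in the second heart field, fell by 3.84 ± 0.37 (adjusted p = 0.00527, edgeR). The Tbx1 levels were 2.03 CPM in the posterior, 43.1 CPM in the middle and 59.1 CPM in the anterior library at E10.5, and 8.57 CPM in the posterior, 135 CPM in the middle and 88.7 CPM in the anterior library at E9.5, so its posterior libraries lay below all others. No receptor (3 tested), other ligand (3), other feedback gene or modulator (14), signal transduction gene (17) or heparan sulphate enzyme (10) passed in edgeR or DESeq2, and 1 receptor and 1 modulator had an unadjusted p under 0.05. The receptor Fgfr1 was at 55.1 CPM in the posterior, 19.6 CPM in the middle and 23.6 CPM in the anterior library at E10.5, and at 56.3 CPM in the posterior, 59.9 CPM in the middle and 75.6 CPM in the anterior library at E9.5. Fgfr2, whose epithelial form is the receptor for Fgf10, was at 27.3 CPM in the posterior library and 0 UMIs in the anterior at E10.5, and at 32.5 CPM in the posterior and 11.6 CPM in the anterior library at E9.5. The decoy receptor Fgfrl1 ran from 3.94 CPM (E10.5 anterior) to 21.7 CPM (E10.5 posterior), and the ligands Fgf9, Fgf13 and Fgf5 reached 20.6, 12.5 and 15.8 CPM at most (the last from 4 UMIs). The kinase gene Map2k2 and the Ras gene Hras lay between 110.3 and 306 CPM in all 7 libraries. The highest of the modulators were Bambi, a pseudoreceptor of the TGF-beta family (11.8 to 240 CPM), Ccnd1 (102 to 214 CPM) and the membrane protein Flrt3 (17.0 to 74.8 CPM). Among heparan sulphate enzymes Hs2st1, Hs6st2 and Sulf2 led, the last at 30.5 to 63.0 CPM. Of the cardiac factors, Isl1 was at 124 CPM in the posterior and 11.8 CPM in the anterior library at E10.5, and at 86.7 CPM in the posterior and 177 CPM in the anterior library at E9.5.

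In epithelium against other cells, 58 of these genes were tested, 6 were higher and 7 lower, beside 6.95% of all genes higher and 4.87% lower in that fit. Those higher were the hedgehog ligand Shh (6.34 on the log2 scale), the ERK pathway inhibitor Spred3 (1.80), the heparan sulphate enzymes Hs6st1 (1.38) and Glce (1.11), Tbx1 (0.88) and the cyclin Ccnd1 (0.55). Those lower were the mesodermal factors Foxc2 (-3.23), Mef2c (-3.03) and Nkx2-5 (-1.04), the early response gene Egr1 (-1.76), the membrane proteins Flrt2 (-1.48) and Lrig3 (-1.27), and the ETS factor Etv1 (-0.93). Shh is also one of the 14 markers of the epithelial class. The largest adjusted p among these was 0.0256 (Etv1, edgeR), and DESeq2 called 2 of these genes. Etv1 was lower in epithelium while its relatives Etv4 and Etv5 were higher in the same fit. The stage sums behind these calls mix positions, and the part of position was not tested. Tbx1 was at 8.57 CPM in the posterior, 135 CPM in the middle and 88.7 CPM in the anterior library at E9.5. Epithelium made up 15.1%, 34.4% and 63.0% of the cells there.

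The genes whose log2(CPM + 10) followed each member most closely over 12 library and class sums, among 8052 genes with at least 200 UMIs, were Rbm4b (Pearson r 0.89), Rcsd1, Nectin1 and Prkd1 for Fgf10. They were Smim3 (0.81), Rpl35a, Mnat1 and Irx3 for Fgf8, Tomm34 (0.80), Timm17a, Id1 and Sbds for Spry2, and Ccdc191 (0.89), Nkx2-3, Nectin2 and Agrn for Etv5. The sums share 2 stage samples and differ in depth, so these values are a description.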

How the data were processed

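The authors deposited 1 matrix of unnormalized UMI counts (genes by cells) per stage and aligned reads to mm10, per the labels' protocols, with Cell Ranger 3.0 and Seurat, per the submitters' processing notes. Totals were 5940977 counts at E10.5 and 16548509 at E9.5. Every cell had at least 1 Osr1 count, and all 1500 cells were kept. Scrublet, run per library, marked most cells of the smallest libraries (97.8% in E10.5 anterior), so it had not worked in libraries of under 60 cells. An alternative left out the 14 cells marked elsewhere.

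The 10 members, the gene lists and the tests were chosen with earlier results of these data known. CPM divides a gene's count by the total of its library or class. Position was fitted on 6 library sums with stage in the model, and epithelium on 4 sums per stage and class, with edgeR 4.0.16 (TMM, filterByExpr, glmQLFTest; adjusted p threshold 0.05), leaving 2 and 1 residual degrees of freedom; SE was taken as log2 fold over root F. Simulated counts were run for posterior against anterior (all cells and other cells) and for epithelium. Of genes changed 2-fold, 6 of 62 were recovered in all cells, 11 of 62 in other cells and 34 of 63 for epithelium. False calls were 2 of 111, 8 of 120 and 13 of 172. The 2 stage samples serve as replicates and no stage is repeated, so p-values measure only the spread between these samples. That spread was largely pooled over genes. The median prior degrees of freedom were 7.2 (position, all cells), 13.5 (position, other cells) and 98.9 (epithelium). Untested folds have exact conditional Poisson intervals (Clopper-Pearson, 95%), which cover counting error only, and a floor of 3 counts. Members were always named; other pathway genes were named where they passed a test or were among the 3 highest of their list, except for items not reported here. Gene positions are from GENCODE vM21, and promoters from RefSeq.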

Additional observations from a re-analysis of the deposited data

Results flagged for a closer look

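Effects of opposite direction in groups under the same contrast drew attention to the following values. None of these differences was tested, because each stage has 1 sample. Fgf8 in epithelium over other cells was 59.7-fold in the E10.5 middle library (1 cell), 0.194-fold in the E9.5 middle and 1.69-fold in the E9.5 anterior library. Spry2 in epithelium over other cells was 2.51-fold in the E10.5 posterior, 2.45-fold in the E9.5 posterior and 3.67-fold in the E9.5 middle library. It was 0.574-fold in the E9.5 anterior library, where 1 cell held most of the UMIs of the other cells. E10.5 over E9.5 was 6.66 in the posterior and 0.183 in the middle libraries for Etv4, and 2.43 in the posterior, 0.0923 in the middle and 0.0880 in the anterior libraries for Etv5. The same ratio was 4.20 in the posterior and 0.370 in the middle libraries for Il17rd, and 2.70 in the posterior and 0.624 in the middle libraries for Spry1. Posterior over middle was 3.13 at E10.5 and 0.0860 at E9.5 for Etv4, 4.24 at E10.5 and 0.161 at E9.5 for Etv5, and 2.06 at E10.5 and 0.182 at E9.5 for Il17rd. Epithelial markers in the other cells stood at 165 CPM in posterior and 52.2 CPM in middle libraries at E10.5, and at 335 CPM in posterior and 191 CPM in middle libraries at E9.5, and their part in these values was not tested.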

How the results depend on the processing

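Of 370 fitted folds recomputed under alternatives, 295 kept direction and side of the threshold, 43 passed only under the alternative, 17 no longer passed and 15 changed sign, each of the 15 when 1 library was left out. Thinning moved 32 of 70 shares of cells. The 72 recomputed untested folds covered 1 CPM added in place of 10, other cells alone, a mean over cells and each position left out. Of these, 4 moved, each with 1 CPM added. Genes called in posterior against anterior, posterior against middle and middle against anterior libraries numbered 45, 33 and 4 with DESeq2, and 260, 178 and 64 with no filter on low counts. In other cells, no filter gave 166 genes (posterior against anterior) and 168 (posterior against middle), and DESeq2 gave 25 for posterior against middle. Without the filter, 4 members were called for posterior against anterior and 3 for posterior against middle, and 3 for posterior against middle in other cells. DESeq2 called 2 members for posterior against middle. With no stage term, 0 genes and 0 members were called in each posterior comparison. In epithelium against other cells DESeq2 called 407 genes and 2 members, the library block 422 and 1, and a threshold of 1 Epcam UMI 791 genes. Leaving out 1 library gave 95 to 332 genes and 1 to 8 members (posterior against anterior), 37 to 231 and 1 to 6 (posterior against middle), 14 to 123 and 0 to 2 (middle against anterior), and 632 to 1389 and 2 to 5 (epithelium). In other cells it gave 95 to 178 and 1 to 5 (posterior against anterior), and 43 to 222 and 0 to 3 (posterior against middle). The folds that changed sign ranged, posterior against anterior, from -6.06 to 4.01 (Fgf8), -1.61 to 7.75 (Fgf10), -2.45 to 0.25 (Spry1), -3.18 to 1.42 (Etv5) and -2.84 to 0.0037 (Il17rd), in other cells from -5.20 to 1.52 (Fgf8), -2.34 to 7.55 (Fgf10), -2.19 to 0.12 (Spry1) and -3.19 to 1.03 (Etv5), and from -1.91 to 8.19 for Fgf8 between middle and anterior; the cause was not tested. A position left with 1 library is assumed to vary like the others. Leaving out the cell with most Spry2 UMIs, chosen after seeing the data, turned the E9.5 anterior epithelium over other fold to 1.38. No paired analysis was possible because the labels give no replicate number that 2 groups share; the stage term and the library block pair sums by stage and library instead. Depth limits Fgf15, Spry4 and the E10.5 anterior and outflow tract libraries, where 3 counts are 11.8 and 15.3 CPM.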
